A study of Homo sapiens with 8 samples.

Results

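The guide RNAs described here target 28 genes of the kinetochore, the mitotic spindle and the kinases that drive cell division. They comprise 1374 of the 46829 guides and 28 of the 1250 genes of a Cas13d screen, and lie on 199 of its 6735 exon-exon junctions. They were chosen by gene symbol alone, with a pattern that covers the CENP, NDC80-complex, MIS, BUB, MAD, PLK, AURK, passenger-complex, kinesin, gamma-tubulin, HAUS and SKA names together with TPX2 and ECT2. Guides typed as non-essential controls were left out, which removed the 6 guides of CENPO. The number of guides per gene ran from 6 for CENPM to 214 for CENPE, with a median of 38.5 and at most 8 on a junction.

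Cas13d is an RNA-guided nuclease that cuts transcripts and leaves the gene itself intact. The screen followed guides in A375, an established human melanoma line, carried as a single clone (a monoclonal line) with the genotype TetO-RfxCas13d, so that every library comes from the same clone with the same doxycycline-inducible nuclease. The untreated cells of Day 0 were the reference, and cells were sampled at Days 7, 14 and 21 under 1 ug/ml doxycycline, with 2 replicates at each time. Guide cassettes were amplified from genomic DNA, so a value reports the relative abundance of a guide in the cell population, not a number of cells.

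The kinetochore is the protein assembly that builds on centromeric chromatin and holds chromosomes to spindle microtubules. Its inner layer rests on CENP-A nucleosomes, its outer layer carries the microtubule-binding NDC80 complex, and the spindle checkpoint delays anaphase until every kinetochore is attached. Motor proteins, microtubule-nucleating complexes and mitotic kinases shape the spindle, and loss of many of these proteins stops dividing cells or leads them to missegregate chromosomes. Slower division and cell death cannot be told apart in guide abundance.

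The values are the authors' log2 fold changes of each guide against Day 0 of the same replicate. A value of -1 means that the scaled abundance of a guide fell to 50% of that at Day 0, and 0 means no change. How the libraries were scaled is not given. The median of the 963 non-targeting guides lay between -0.0376 and 0.0197 in the 6 libraries, and that of all guides reached -0.33 and -0.28 at Day 21. Apart from a constant for each library, the values are logarithms of quotients of whole numbers, and the smallest whole numbers that serve are called implied numbers here. Their median at Day 0 was 85 and 116 for the mitotic guides in replicates 1 and 2, against 92 and 125 for all guides. Guides to a gene or a junction share their target and were not treated as replicates: a gene's value is the mean over its guides in each replicate, and the 2 replicates give the error. Nothing in the labels says that the replicates were separate infections, so p-values measure the spread between these samples only.

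A gene was called when limma, fitted at each day on the 1223 genes with at least 3 guides, gave a Benjamini-Hochberg adjusted p under 0.05 for the mean of the 2 replicates against 0. Of the 28 mitotic genes, 0 were called at Day 7 by limma, 2 had an unadjusted p under 0.05, and 10 alternative settings also called 0. The background was 3.92% of all genes tested called lower and 0.0818% called higher. At Day 14, 7 genes had fallen (25.0%, background 22.1%) and 1 had risen (background 0.736%). At Day 21, 6 had fallen (21.4%, background 20.8%) and 1 had risen (background 0.654%). The share of mitotic genes that fell was therefore near that of all genes tested at both days. The 1223 genes include 394 non-essential controls, a type left out of the mitotic genes. Of these controls, 6.60% fell at Day 14 and 5.08% at Day 21, and 32.5% were below 0 in both replicates at Day 21. Each of these backgrounds would therefore be higher without the controls. The median gene mean was -0.33 at Day 21, against -0.28 over all genes, and 19 of the 28 genes were below 0 in both replicates (67.9%, background 61.3%) and 6 were above 0 in both (background 13.3%).

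The 6 genes that fell at both days were SPC25, MIS18A, CENPW, SKA1, NDC80 and CENPE, all of the kinetochore or of centromere chromatin. The 10 genes with an unadjusted p under 0.05 at Day 21 were these 6, MAD2L1, KIF11, TUBGCP6 and TUBGCP4. TUBGCP6 fell at Day 14, a call lost in 6 of 10 alternative settings, and the gene that rose at both days was MAD2L1. The difference between Day 21 and Day 7, tested in its own fit, was called for the same 7 genes as Day 21, 6 lower (21.4%, background 23.5%) and 1 higher (background 1.23%). With each library centred on the median of all guides, which at Day 21 lifts every gene by the size of the 2 medians given above, limma called 2 lower and 1 higher at Day 14, 2 lower and 0 higher at Day 21, and 2 lower and 1 higher for the difference. With centring on the control guides, Day 14 had 3 lower and 0 higher. With the median over a gene's guides in place of the mean, 2 mitotic genes were called at Day 14 and 0 at Day 21, where 8 had an unadjusted p under 0.05. The share of all genes called was not taken in these settings of centring and the median. Their counts therefore have no background and are not read as a result about the mitotic genes. When limma fitted the 3 days together, with replicate as a block, it called 15 mitotic genes lower (background 45.5%) and 3 higher (background 5.64%) at Day 21. Beside the 7 genes above, it called KIF11, TUBGCP6, TUBGCP4, KIF23, NUF2, KIF2C, PLK1, HAUS1 and BUB3 lower and MIS12 and SPC24 higher. The block takes out the replicate difference that the 3 days share, so its p-values leave that spread out. They therefore measure a different spread from the p-values of each day alone. Calls below are from the fit of each day alone unless the block is named.

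The table types 16 of these genes as essential in the Cas13 screen (1017 guides) and 12 as not (357 guides). Its criterion is not stated and may rest on the same fold changes, so the type is given as a description. All 6 genes that fell at Day 21 were typed essential (37.5% of 16, against 44.1% of all genes of that type), and the median gene mean of the 16 was -0.64, against -0.70 for the whole type. AURKA carried the essential type with a mean above 0 in both replicates, and the other 15 were below 0 in both. Among the 12 typed not essential, 0 were called lower by limma, and MAD2L1 was the gene called higher. Their median was -0.0172, against -0.12 for all genes of that type.

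In the outer kinetochore, 4 of 7 genes fell at Day 21, where 20.8% of all genes did, with a median of -0.93 over the 7 and -0.28 over all genes. SPC25, a subunit of the NDC80 complex that pairs with SPC24, lies at chr2:168861521-168890430 on the minus strand (RefSeq, GRCh38.p14). Its 26 guides averaged -0.18 and -0.47 at Day 7, -1.35 and -1.63 at Day 14, and -2.08 and -1.93 at Day 21 in replicates 1 and 2. Both replicates were below 0 at every day, and those of Days 14 and 21 lay well below those of Day 7. The Day 21 mean was -2.01 ± 0.108 (SD, n = 2; SE 0.147; limma adjusted p = 0.0107), the lowest of the 28 genes, and it fell by 1.68 between Day 7 and Day 21 (limma adjusted p = 0.000167). Among its 26 guides, 20 were negative in both replicates, and 14 of these (53.8% of the 26, background 17.1%) were below -1 in both. With the median over guides the Day 21 value was -1.41 (limma adjusted p = 0.0646).

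NDC80, the subunit that names the complex and contacts the microtubule, lies at chr18:2571557-2616635 on the plus strand. Its 68 guides averaged -0.11 and -0.41 at Day 7, -0.81 and -0.98 at Day 14, and -0.99 and -1.11 at Day 21. Replicate 1 was the higher at each day, by less than the distance between Day 7 and Day 21. The Day 21 mean was -1.05 ± 0.0853 (SD, n = 2; limma adjusted p = 0.0244). The difference from Day 7 was -0.79 (limma adjusted p = 0.0174). With the median over guides the Day 21 value was -0.64 (limma adjusted p = 0.142).

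The table held all 4 subunits of the NDC80 complex, and their guides did not read alike. NUF2, which pairs with NDC80, averaged 0.06 and 0.00 at Day 7, -0.37 and -0.17 at Day 14, and -0.66 and -0.22 at Day 21 over 49 guides. Its Day 21 mean was -0.44 ± 0.315 (SD, n = 2; limma adjusted p = 0.196) and was not called, though the block fit called it (limma adjusted p = 0.0245). SPC24, which pairs with SPC25, averaged 0.06 and 0.04, then 0.17 and -0.06, and finally 0.83 and 0.07 over 18 guides. Its mean of 0.45 ± 0.536 (SD, n = 2; limma adjusted p = 0.295) was the highest of the outer kinetochore genes and rested on replicate 1. The block fit, which leaves out the replicate difference shared by the days, gave a limma adjusted p = 0.0462. At Day 21, SPC24 stood above SPC25 by 2.91 and 2.00 in the 2 replicates, and NUF2 stood above SPC25 by 1.42 and 1.71. These differences between genes were not tested.

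CENPE, the kinesin-like motor that carries chromosomes to the spindle equator, lies at chr4:103105811-103198343 on the minus strand. Its 214 guides averaged -0.06 and -0.30 at Day 7, -0.62 and -0.72 at Day 14, and -0.92 and -0.93 at Day 21. The replicates almost met at Day 21, where the mean was -0.93 ± 0.00306 (SD, n = 2; SE 0.141; limma adjusted p = 0.0305). The SE here is larger than the SD because limma draws each gene's spread toward that of all genes. Of the 214 guides, 107 were below 0 in both replicates, a share not taken over all guides. Among them, 47 lay below -1 in both (22.0%). The background was 17.1% of all guides and 23.1% of guides typed essential, the type of CENPE. Both day calls were lost with the median over guides, which gave -0.40 at Day 14 and -0.67 at Day 21.

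SKA1, part of the complex that helps kinetochores follow shrinking microtubules, was read by 7 guides on 1 junction, chr18:50391293-50392098. They averaged 0.12 and -0.70 at Day 7, -0.58 and -0.86 at Day 14, and -0.89 and -1.44 at Day 21. The replicates were of opposite sign at Day 7 and both below 0 after it. The Day 21 mean was -1.16 ± 0.384 (SD, n = 2; limma adjusted p = 0.0399), with 6 of 7 guides below 0 in both replicates and 1 guide called. The Day 21 call was lost in 3 of 9 alternatives and the Day 14 call in 5 of 9. MIS12, of the complex that links inner and outer layers, had 8 guides on 1 junction and averaged 0.57 and 0.25 at Day 21 (limma adjusted p = 0.18, or 0.0158 with the block).

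In the inner kinetochore and centromere chromatin, 2 of 6 genes fell at Day 21, where 20.8% of all genes did, and the median over the 6 was -0.17, nearer 0 than the -0.28 of all genes. MIS18A, a subunit of the complex that prepares centromeres for new CENP-A, lies at chr21:32154682-32279049 on the minus strand. Its 26 guides averaged -0.21 and -0.24 at Day 7, -1.38 and -1.68 at Day 14, and -2.02 and -1.84 at Day 21. The replicates lay closer to each other at every day than Day 14 lay to Day 7. The Day 21 mean was -1.93 ± 0.13 (SD, n = 2; SE 0.15; limma adjusted p = 0.0115), and the difference from Day 7 was -1.70 (limma adjusted p = 0.000108). With the median over guides these were -0.96 (limma adjusted p = 0.102) and -0.85 (limma adjusted p = 0.123), and neither was called. All 4 of its junctions were below 0 in both replicates, as were all 4 of SPC25.

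CENPW, a histone-fold protein that contacts centromeric DNA with CENPT, had 8 guides on the junction chr6:126346318-126348465. They averaged 0.04 and -0.38 at Day 7, -0.72 and -1.02 at Day 14, and -1.78 and -0.96 at Day 21. Replicate 1 was the lower at Day 21 and the higher at the other days. The Day 21 mean was -1.37 ± 0.576 (SD, n = 2; limma adjusted p = 0.0476), with 6 guides below 0 in both replicates. Of the 8 guides, 1 was called, at -5.52 and -5.80. Its implied numbers of 48 and 51 at Day 0 were both 1 at Day 21, so these values may be only bounds. With guides of an implied Day 0 number under 50 left out, the called guide among them, 4 guides remained. None of the 3 values was then called by limma: the Day 14 mean was 0.0348, the Day 21 mean -0.60 and the difference from Day 7 -0.50. The Day 21 call was lost in 5 of 10 alternatives and that of the difference, -1.20, in 6 of 10.

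The other inner kinetochore genes, CENPC, CENPL, CENPM and CENPN, ran from -0.18 to 0.17 at Day 21 and none was called by limma. CENPN, a reader of CENP-A nucleosomes, was the highest, at 0.11 and 0.23. CENPC, the scaffold of the inner layer, averaged -0.18 and -0.17 over 69 guides, of which 0 were called. CENPM had 6 guides and CENPL 16, and CENPL had replicates of opposite sign at Day 21, -0.38 and 0.10.

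The 2 spindle checkpoint genes lay on opposite sides of 0 at Day 21, and 1 of them rose. MAD2L1 encodes MAD2, the checkpoint protein that holds back the anaphase-promoting complex, and lies at chr4:120055623-120066848 on the minus strand. Its 15 guides averaged 0.36 and 0.25 at Day 7, 0.93 and 0.59 at Day 14, and 1.12 and 0.98 at Day 21. Both replicates were above 0 at every day and higher at each later day. The Day 21 mean was 1.05 ± 0.0941 (SD, n = 2; SE 0.146; limma adjusted p = 0.0245), and the difference from Day 7 was 0.74 (limma adjusted p = 0.0232). In the fits of each day alone, MAD2L1 was the mitotic gene called higher.

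Both MAD2L1 junctions were above 0 in both replicates. At chr4:120060290-120060873 the 7 guides averaged 1.25 and 1.17 at Day 21, and at chr4:120065818-120066661 the 8 guides averaged 1.00 and 0.81. Of the 15 guides, 11 were above 0 in both replicates, 6 were above 1 in both (background 2.73%) and 2 were below 0 in both. The highest was guide 6 of the 8-guide junction, at 3.79 and 3.23. This guide had implied numbers of 45 at Day 0 and 595 at Day 21 in replicate 1, and of 53 and 543 in replicate 2. BUB3, which recruits checkpoint kinases to kinetochores, averaged -0.12 and -0.51 at Day 21 over 26 guides (limma adjusted p = 0.3, or 0.0472 with the block).

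In the chromosomal passenger complex, which corrects wrong attachments, 0 of 2 genes were called by limma at any day. BIRC5 (survivin) averaged -0.30 and -0.11 at Day 21 over 8 guides. CDCA8 (borealin) averaged 0.16 and -0.37 over 56 guides, with replicates of opposite sign. Both means change sign with libraries centred on all guides, to 0.10 for BIRC5 and 0.20 for CDCA8.

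Of the kinases, 0 of 2 were called by limma as genes in the fit of any day alone, although single guides were. PLK1, the kinase of mitotic entry, spindle assembly and cytokinesis, averaged -0.10 and -0.16 at Day 7, -0.51 and -0.30 at Day 14, and -0.53 and -0.21 at Day 21 over 46 guides. Both replicates were below 0 throughout, but the Day 21 mean of -0.37 ± 0.226 (SD, n = 2; limma adjusted p = 0.219) was not called there, and was with the block (limma adjusted p = 0.0334). Its median guide stood at -0.0101, while 6 guides were called lower (13.0%, background 11.1%) and 1 higher (background 0.218%). The lowest PLK1 guide stood at -6.55 and -4.64, and the highest at 2.06 and 3.00 (limma adjusted p = 0.0369 over all guides). AURKA, the centrosomal kinase of spindle assembly, averaged 0.28 and 0.27 over 16 guides (limma adjusted p = 0.26).

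A junction of AURKA, chr20:56381571-56382984, held guides called in opposite directions. Its guide 8 stood at -4.36 and -2.23 (limma adjusted p = 0.00501 over all guides) and guide 3 at 2.91 and 3.59 (limma adjusted p = 0.00451). Between Day 0 and Day 21, guide 8 had implied numbers of 301 and 14 in replicate 1 and of 158 and 37 in replicate 2, while guide 3 had 49 and 353, and 56 and 741. The 8 guides of this junction averaged 0.21 and -0.16. This pair was picked after its values were seen.

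Among the 5 genes of spindle assembly and microtubule nucleation, 1 fell at Day 14 and 0 at Day 21 by limma. TUBGCP6, a subunit of the gamma-tubulin ring complex that seeds microtubules, averaged 0.02 and -0.14 at Day 7, -0.52 and -0.82 at Day 14, and -0.48 and -0.88 at Day 21 over 68 guides. The Day 14 mean was -0.67 ± 0.217 (SD, n = 2; limma adjusted p = 0.0456), and Day 21 gave a mean of -0.68 with a wider spread (SD 0.283; limma adjusted p = 0.0844, or 0.00244 with the block). The adjusted p of Day 14 reached 0.169 over the limma alternatives. TUBGCP4, of the same complex, averaged -0.68 and -0.52 (limma adjusted p = 0.0754, or 0.00418 with the block). TUBG1, gamma-tubulin itself, had replicates of opposite sign, -0.20 and 0.34, over 16 guides.

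HAUS1, of the augmin complex that branches microtubules, averaged -0.37 and -0.31. TPX2, the microtubule-bound activator of Aurora A, was the highest of the group, at 0.47 and 0.04 over 72 guides (limma adjusted p = 0.408). Of the TPX2 guides, 11 were above 1 in both replicates (background 2.73%) and 3 were called lower (4.17%, background 11.1%).

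All 3 kinesins with KIF names were below 0 in both replicates at Day 21. CENPE, the kinesin-like motor called above, is counted with the outer kinetochore. None of the 3 KIF genes was called by limma in the fit of that day alone. All 3 were called with the block (limma adjusted p = 0.00526 for KIF11, 0.0236 for KIF23 and 0.0253 for KIF2C). KIF11, the motor that pushes spindle poles apart, averaged -0.04 and -0.27 at Day 7, -0.64 and -0.46 at Day 14, and -0.79 and -0.56 at Day 21 over 126 guides (Day 21 limma adjusted p = 0.0665). KIF23, of the central spindle, averaged -0.64 and -0.25. KIF2C, a microtubule depolymerase at centromeres, averaged -0.46 and -0.30. ECT2, the exchange factor that starts the cleavage furrow, averaged -0.36 and -0.05 over 92 guides, and its mean becomes 0.10 with libraries centred on all guides.

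The Day 14 values were set against those of Day 21 for the called genes. The Day 14 mean was 85.2% of the Day 21 mean for NDC80, 79.2% for MIS18A, 74.4% for SPC25, 72.5% for MAD2L1 and 72.4% for CENPE. For SKA1, with 7 guides, it was 61.7%. No share is given for CENPW, where replicate 1 was at -0.72 and later -1.78, while replicate 2 was at -1.02 and later -0.96. Days of a replicate share their Day 0 library, and the steps between Days 14 and 21 were not tested. Across the 28 gene means, the replicates had a Pearson correlation of 0.330 at Day 7, 0.876 at Day 14 and 0.871 at Day 21 (Spearman 0.416, 0.853 and 0.826), given as a description across genes.

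At guide level, with limma run on all 46829 guides, 16 mitotic guides were called lower at Day 7 (1.16%, background 2.1%), 68 at Day 14 (4.95%, background 7.96%) and 107 at Day 21 (7.79%, background 11.1%). Non-targeting guides were called lower at a rate of 1.04% at Day 21, or 10 of 963. Guides called higher numbered 1, 1 and 4 at the 3 days, against backgrounds of 0.00641%, 0.0128% and 0.218%. The 4 of Day 21 belong to MAD2L1, KIF11, PLK1 and AURKA. The 107 lower guides lie in 18 genes and on 61 junctions, 52 of them in the 6 genes that fell. Of the 107, 61 were also lower at Day 14 and 14 at Day 7.

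Without a test, 195 mitotic guides were below -1 in both replicates at Day 21 (14.2%, background 17.1%) and 49 were above 1 in both (3.57%, background 2.73%). In the genes typed not essential, 27 of 357 mitotic guides were above 1 in both (7.56%), against 3.32% of all guides of that type. MAD2L1 held 6 of these and TPX2 held 11. The number of guides at an implied 1, the smallest implied number, rose from 0 at Day 7 to 32 and 23 in replicates 1 and 2 at Day 21, 9 of them in both. The fold change of such a guide may be only a bound set by its Day 0 number. Implied numbers are themselves lower bounds, so this is not certain. Genes with many guides weigh most in these counts: CENPE contributed 24 of the 107 lower guides and KIF11 contributed 13.

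Junctions of a gene were compared with the remaining guides of that gene at Day 21, which asks whether the guides of a junction read differently from the others. Each junction has its own guides, so its position cannot be told apart from the activity of those guides. Of 180 mitotic junctions that could be tested, in 23 genes, limma called 17 lower (9.44%, background 12%) and 10 higher (5.56%, background 9.92%) than the rest of their gene. These shares were below those of all 6111 junctions tested. With the median over a junction's guides in place of the mean, 9 of the 27 called junctions stayed called. The called junctions lie in 12 genes, 8 of which were not called as genes at Day 21, and 7 genes had called junctions in both directions. The distance between the lowest and highest junction had a median of 1.49 over 21 genes, against 1.68 over 608 genes, and ran from 0.203 for CENPL to 4.59 for CENPE.

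The junctions with the largest differences, singled out after their values were seen, lie in KIF11, CENPE, NDC80 and MIS18A. Coordinates are in hg38, per the submitters' processing notes, as the table lists them, and all 199 junctions lie inside the RefSeq span of their gene. The KIF11 junction chr10:92630364-92632485 averaged -0.88 and -1.43 at Day 7 and -4.09 and -3.56 at Day 21 over 8 guides. Its differences from the rest of KIF11 were -3.52 and -3.21, with a mean of -3.36 (SE 0.361; limma adjusted p = 3.66e-09). Of its guides, 6 were called lower and 1, guide 6, was above 0 in both replicates, at 1.06 and 0.60. Without this junction the KIF11 mean was -0.46, against -0.68 with it.

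KIF11 also had 1 other low junction and 2 high ones. Its junction chr10:92637309-92637386 averaged -2.30 and -2.79 (limma adjusted p = 7.73e-05 against the rest), and chr10:92616832-92621384 averaged 0.70 and 0.69 (limma adjusted p = 0.00253). Of the 18 KIF11 junctions, 11 were below 0 in both replicates and 2 were above 0 in both. The lowest KIF11 guide, guide 6 of another junction, stood at -5.77 and -7.53, and its implied numbers of 57 and 169 at Day 0 were both 1 at Day 21.

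In CENPE, the junction chr4:103181456-103182761 averaged -1.11 and -1.97 at Day 7 and -3.29 and -4.63 at Day 21. Its mean difference from the rest of the gene was -3.15 (SE 0.378; limma adjusted p = 3.6e-08). All 8 guides were below 0 in both replicates and 5 were called. Guide 5 stood at -6.72 and -7.40, and its implied numbers of 110 and 154 at Day 0 were both 1 at Day 21, so these values may be only bounds. Guide 1 of the same junction stood at -1.01 and -0.09, so neighbours on a junction spread widely.

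CENPE had 30 junctions, of which 22 were below 0 in both replicates and 1 was above 0 in both. The latter, chr4:103195233-103195919, averaged 0.87 and 0.38 over 4 guides (limma adjusted p = 0.00112 against the rest). The gene mean without the lowest junction was -0.81, against -0.93 with it.

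In NDC80, the junction chr18:2608830-2610758 averaged -0.55 and -1.45 at Day 7 and -3.24 and -3.71 at Day 21, a difference from the rest of -2.75 (SE 0.362; limma adjusted p = 2.5e-07). Of its 8 guides, 5 were called lower. Guide 5 had replicates of opposite sign, -3.42 and 1.24, with implied numbers of 67 and 6 at Days 0 and 21 in replicate 1 and of 177 and 457 in replicate 2. The preceding junction by coordinate, chr18:2601485-2606414, averaged -0.14 and 0.69, and 0 of its 8 guides were called lower by limma. The NDC80 mean without the lowest junction was -0.72, against -1.05 with it.

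In MIS18A, the junction chr21:32274896-32278680 averaged -3.88 and -3.36 at Day 21, with 6 of 8 guides called lower, and stood below the rest by a difference of -2.43 (SE 0.363; limma adjusted p = 2.4e-06). At chr21:32269117-32269706 the 8 guides averaged -0.76 and -0.35, and 0 of them were called by limma. Without the lowest junction the MIS18A mean was -1.18, against -1.93 with it. The lowest MIS18A guide lies on neither of these, at -6.33 and -7.63, and was at an implied 1 in both replicates.

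SPC25 was low on 3 of its 4 junctions. They averaged -2.75 and -3.08 at chr2:168889533-168890317, -2.48 and -1.69 at chr2:168871555-168873584, and -1.44 and -1.45 at chr2:168876176-168877237. The remaining SPC25 junction, with 2 guides, averaged -0.38 and -0.18. The mean without the lowest junction was -1.60, against -2.01 with it. The lowest SPC25 guide stood at -6.79 and -7.09, with an implied 1 in both replicates. The highest SPC25 guide stood at 1.41 and 0.97, on the lowest junction of the gene.

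Several genes that were not called held junctions of opposite direction. TPX2 had 2 junctions called higher than the rest and 2 called lower. Its junction chr20:31760179-31766555 averaged 1.30 and 1.30 at Day 21, with 7 of 8 guides above 0 in both replicates, and chr20:31782390-31783704 averaged -0.97 and -0.71. PLK1 had neighbouring junctions of opposite direction: chr16:23687624-23688667 averaged 1.01 and 0.43, and chr16:23688745-23689237 averaged -1.56 and -0.93. ECT2 had 1 low junction, chr3:172807924-172815603, at -2.97 and -0.87 (limma adjusted p = 0.00049 against the rest).

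The table also sorts junctions into categories named common, single_unique, partial_unique and fully_unique, without definitions. Of the mitotic guides, 1007 are common, 268 single_unique, 65 partial_unique and 34 fully_unique. BUB3, CDCA8, CENPL and CENPN carry more than 1 category. In CENPN, the junctions chr16:81020276-81022596 and chr16:81020276-81022754 share their listed start. The former, partial_unique, averaged 0.75 and 0.58 at Day 21, and the latter, fully_unique, averaged -0.47 and 0.16. In CDCA8 the fully_unique junction averaged 0.33 and -0.76, within the range of its common junctions. No junction of these 4 genes was called against the rest of its gene by limma.

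The table gives a GeCKO gene score, named after a Cas9 knockout library, for each of these genes, from -1.61 for PLK1 to -0.89 for KIF2C. Over the 28 genes the score and the Day 21 mean had a Pearson correlation of 0.0415 and a Spearman correlation of -0.00493, given as a description. PLK1, with the lowest score, averaged -0.37 at Day 21, and MAD2L1, with a score of -1.40, averaged 1.05.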

How the data were processed

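The deposited table holds the authors' log2 fold changes of each guide at Days 7, 14 and 21 against Day 0 of the same replicate, per the file headers, for 6 libraries. Per the submitters' processing notes, cutadapt 3.5, Bowtie 1.1.2 and hg38 were used, with no roles given. Read depth, counting, library scaling and any pseudocount are not given in the sources used here, so counting error could not be set beside single values. The GeCKO score is a deposited score per gene whose making is not stated. Whole-number ratios were searched up to a denominator of 2000 within a tolerance of 1e-06, and fitted 100% of the values in each library. An implied number is a lower bound and includes any pseudocount.

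Genes entered as means over at least 3 guides, guides as they are, and junctions (at least 3 guides) as the difference from the gene's remaining guides (at least 3). The mean of the 2 replicates was tested against 0 with limma 3.58.1 in R 4.3.3, by day, with empirical Bayes moderation and Benjamini-Hochberg adjustment over all features, after tests on simulated data. Genes were named if called in a fit, or if lowest or highest at Day 21 in their role; others were added to complete a complex or role. Named guides are the lowest and highest of a gene, or single guides of the leading junctions picked after their values were seen. The members, lists and tests were chosen with earlier results of these data known. Replicates were paired by subtraction: deviations from the day means correlated between days at 0.484, 0.411 and 0.647 for guides, where the days of a replicate share their Day 0 library. Alternatives covered medians, junction means, centring, robust moderation, a fit of all days with and without the replicate number, implied Day 0 numbers of at least 50, and at least 8 guides per gene. Gene spans came from RefSeq GRCh38.p14, where 28 of 28 genes matched. Guide spacer sequences were not used here.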

Additional observations from a re-analysis of the deposited data

Results flagged for a closer look

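For 7 of the 28 genes, the effect at Day 21 differed from that at Day 7 in limma's test of the difference itself, taken within each replicate. Of these, 6 were lower (21.4%, background 23.5%) and 1 was higher (background 1.23%), so the share that fell was near that of all genes. MIS18A fell by 1.70 on the log2 scale between those days, SPC25 fell by 1.68, CENPW fell by 1.20, SKA1 fell by 0.88, NDC80 fell by 0.79 and CENPE fell by 0.74. MAD2L1 rose by 0.74. For each of the 7, both replicates moved in the stated direction. The CENPW difference was lost in 6 of 10 alternatives.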

How the results depend on the processing

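Alternative settings were recomputed over all features with limma. Among them, the share of all features called was taken only for genes at Day 21 with the block. The other alternative counts below have no background and describe calls only. With the median over guides in place of the mean, mitotic genes called numbered 2 at Day 14 (8 with the mean), 0 at Day 21 (7 with the mean; 8 had an unadjusted p under 0.05) and 0 for Day 21 minus Day 7 (7 with the mean; 6 unadjusted), junctions called numbered 10 in place of 27, and the median gene mean at Day 21 moved from -0.33 to -0.13. With means of junction means, 4 genes were called at Day 14 and 3 for the difference. With centring on all guides, 3 were called at Day 14, 2 at Day 21 and 3 for the difference, and the median moved to -0.0208. With centring on control guides, 3 were called at Day 14. With at least 8 guides per gene, 11 were called for the difference. With all days in 1 fit and no replicate block, 13 genes were called at Day 21 (12 lower, 1 higher) and 42 junctions. With the replicate block, where the replicates are paired through their number, 18 genes were called at Day 21. Of these, 15 were lower (background 45.5%) and 3 higher (background 5.64%). The block also called 236 guides lower in place of 107 and 86 junctions at Day 21, and 12 genes at Day 14. At Day 7, 0 genes were called in each of 10 alternatives, with 0 to 3 at an unadjusted p under 0.05.

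SPC25 and MIS18A stayed called at Day 14 in 10 of 10 alternatives and at Day 21 in 9 of 10, lost with the median (SPC25 -1.41, MIS18A -0.96). CENPE, NDC80 and MAD2L1 stayed called at Day 21 in 8 of 10, CENPW in 5 of 10 and SKA1 in 6 of 9, and TUBGCP6 at Day 14 in 4 of 10. Signs were followed for the genes called in a fit and for the lowest and highest of each role. Among these, BIRC5 and ECT2 turned when centred on all guides (0.10 each). CDCA8 turned likewise (0.20), turned with the median (0.0768), and ran from -0.37 to 0.16 with either replicate left out. PLK1 turned with the median (0.0275). The Day 14 mean of CENPW turned to 0.0348 with implied Day 0 numbers of at least 50, which left 4 of 8 guides. Outside the genes so followed, the Day 21 means of CENPC (-0.18), CENPM (-0.17) and CENPL (-0.14) also turn when centred on all guides. They lie nearer 0 than the all-guide medians of -0.33 and -0.28. This centring subtracts those medians from every value, so the sign of these means turns by construction. Of the other tested values of the genes so followed and of single junctions, 288 kept their side of the threshold, 60 lost a call and 11 gained one. Leaving out a replicate gives no test, since 1 value a day has no residual degrees of freedom. The median gene mean then ran from -0.38 to -0.23. Read depth is unknown, so no counting interval was given, and guides at an implied 1 may have only a bound.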

Other observations

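Genes of cell division that the name pattern did not take were read from lists of other pathway genes. Of 8 genes of the anaphase-promoting complex and its activators, out of 20 listed, 5 fell at Day 21 (62.5%, against 20.8% of all genes), with a median of -1.12. ANAPC4, a scaffold subunit, averaged -2.06 and -2.01 in the 2 replicates (limma adjusted p = 0.0107). CDC16 averaged -1.74 and -1.35, ANAPC5 -1.56 and -1.46, and ANAPC2 -1.13 and -1.41. CDC27 had a mean of -0.98. CDC20, the activator that MAD2 binds, averaged -0.54 and -0.46 (limma adjusted p = 0.0984) and was not called.

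Of 15 genes of the spindle, centrosome and dynein, out of 47 listed, 4 fell (26.7%, against 20.8% of all genes), with a median of -0.37 against -0.28 over all genes. HMMR, CDK5RAP2, NDEL1 and OFD1 of this list are typed as non-essential controls, a type left out of the mitotic genes above. RAN, the GTPase of nuclear transport and spindle assembly, averaged -3.57 and -4.48 over 8 guides (limma adjusted p = 0.0107). The dynein genes DYNC1I2 and DYNC1H1 averaged -2.66 and -2.87, and -1.84 and -2.18. Of 6 genes of mitotic entry and exit, out of 23 listed, WEE1 and PKMYT1, the kinases that hold back CDK1, fell, with means of -1.09 and -0.97. Of 5 further kinetochore and checkpoint genes, out of 16 listed, and 4 cytokinesis genes, out of 15 listed, 0 were called at Day 21 by limma, and OIP5, KNL1, TSG101 and CHMP2A had an unadjusted p under 0.05. KNL1, the outer kinetochore scaffold, averaged -0.61 and -0.54 (limma adjusted p = 0.0754, unadjusted 0.0213). Over the 38 genes of these lists, 11 fell (28.9%, against 20.8% of all genes) and 0 rose (against 0.654%), with a median of -0.50 against -0.28 over all genes. NEK2, of the entry and exit list, is also typed as a control.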
